A study of Mus musculus with 6 samples.

Results

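Expression of 10 homeobox genes that pattern the branchial arches was examined, and the genes were chosen by name from the deposited expression table: the distal-less genes Dlx1, Dlx2, Dlx3, Dlx4, Dlx5 and Dlx6, the BarH-like gene Barx1, the H6 family genes Hmx2 and Hmx3, and the muscle segment gene Msx1. The table holds 26728 entries, and all 10 genes were found in it. Earlier results of the same contrast, carotid body against adrenal medulla, were known when the genes were chosen, so their difference between the tissues is described below with no test. RNA came from 3 pools of carotid body and 3 pools of adrenal medulla of untreated adult C57/BL6 mice, and the labels give no further genotype or age. The series note speaks of 18 carotid bodies and 10 adrenal medullas pooled from 10 mice for a sample, and it does not say whether both tissues of one number came from one set of mice. Each library is therefore a pool of animals and a mixture of the cell types of a dissected organ.

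Homeobox genes encode transcription factors that bind DNA through a homeodomain. In the embryo, neural crest cells that fill the branchial arches use nested combinations of Dlx genes to read their position along the arch, with Dlx1 and Dlx2 active throughout, Dlx5 and Dlx6 in the lower part, and Dlx3 and Dlx4 at its tip. Endothelin-1 acting on the receptor Ednra switches on Dlx5 and Dlx6, and bone morphogenetic proteins induce Msx1 and Msx2. The carotid body forms on the artery of the third arch with cells of neural crest origin, whereas the adrenal medulla forms from crest cells of the trunk. The genes are studied mostly in the embryo, and the libraries here are of adult tissue.

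The 6 libraries held 13266225 to 16445925 reads, recovered from the deposited values as described under the processing. Values are RPKM, the reads of a gene scaled to the length of its mRNA and to the depth of the library. A positive log2 difference means a higher level in the carotid body. It was taken after adding 1 to each RPKM value, so for genes of low level it is smaller than the ratio of the RPKM values. Catecholamine cell markers were present in both tissues, with Th, the first enzyme of catecholamine synthesis, at 434 to 646 RPKM in the carotid body and 887 to 2489 RPKM in the adrenal medulla. The adrenal medulla libraries also held adrenal cortex transcripts, with 10 cortex markers summing to 11431 to 15979 RPKM against 25.7 to 130 RPKM in the carotid body. The sum of 10 fat markers set 2 pools apart. It was 3688 RPKM in pool 2 of the carotid body against 421 and 900 RPKM in pools 1 and 3. In the adrenal medulla it was 2295 RPKM in pool 3 against 743 and 231 RPKM in pools 1 and 2. The adrenal medulla excess was mostly Cfd, at 1641 RPKM in pool 3 against 275 and 11.6 RPKM. Fabp4 and Retn were also highest in pool 3. Adipoq differed little between pools 3 and 1, at 79.8 and 68.0 RPKM, and Lep was higher in pool 1. Adrenal medulla pool 3 thus stood apart by the sum, largely through Cfd. Results were recomputed without these 2 pools.

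Of the 10 genes, 8 reached 1 RPKM in at least 3 libraries and 2, Dlx3 and Dlx4, did not. The 8 reached that level through the carotid body libraries, so a difference was built into the filter for them. Their mean levels in the carotid body ran from 4.86 RPKM for Dlx6 to 18.2 RPKM for Dlx1, and 7 of the 8 stayed under 1 RPKM in each adrenal medulla library. For 8 of the 10 genes all 3 carotid body pools lay above all 3 adrenal medulla pools, a separation seen in 22.3% of the 13357 genes that reached the filter. Nothing is read from this count, since the contrast chose the genes. The median log2 difference was 2.91 over all 10 genes and 0.02 over all genes tested. Libraries of whole tissue cannot tell fewer expressing cells from less RNA per cell.

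**Figure D1:**
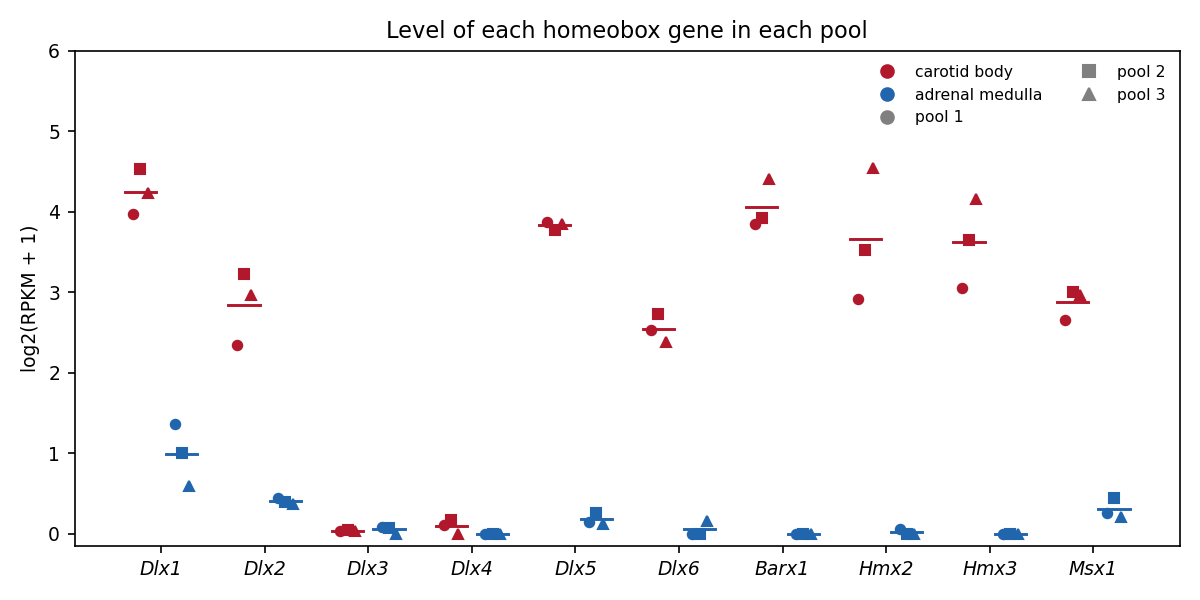
The level of each of the 10 homeobox genes, as log2(RPKM + 1), is plotted for the 3 carotid body pools (red) and the 3 adrenal medulla pools (blue), with a bar at the mean of each group and a marker shape for each pool. Dlx3 and Dlx4 lie near 0 in both tissues, and the other genes separate the tissues.

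Dlx1 and Dlx2, the pair active throughout the arches, lie tail to tail on chromosome 2 with no protein-coding gene between them. Dlx1 stood at 14.7, 22.2 and 17.9 RPKM in carotid body pools 1, 2 and 3 and at 1.58, 1.01 and 0.503 RPKM in adrenal medulla pools 1, 2 and 3. Its mean was 17.7-fold higher in the carotid body, a log2 difference of 3.26 ± 0.27 (SE, n = 3 pools each). Dlx1 was the member with the most adrenal medulla reads, 122 over the 3 libraries, and relative to their means its adrenal levels differed among pools by more than its carotid body levels did. Leaving out the 2 pools that stood apart gave a log2 difference of 2.92. Dlx2 stood at 4.07, 8.35 and 6.80 RPKM in the carotid body pools and at 0.358, 0.309 and 0.293 RPKM in the adrenal medulla pools, and its mean was 20.0-fold higher in the carotid body (log2 2.44 ± 0.24, SE). Within a carotid body library Dlx1 exceeded Dlx2 by 3.61, 2.66 and 2.63 times per unit of mRNA length.

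Dlx5 and Dlx6, the pair that acts downstream of endothelin in the lower jaw, lie tail to tail on chromosome 6. Dlx5 stood at 13.6, 12.7 and 13.4 RPKM in the carotid body pools and at 0.106, 0.199 and 0.0862 RPKM in the adrenal medulla pools. The carotid body values of Dlx5 were the most even of the 8 detected genes, with a coefficient of variation of 3.80%, and its mean was 102-fold higher than in the adrenal medulla, where 8 reads were counted in all. The log2 difference of Dlx5 was 3.66 ± 0.18 (SE). Dlx6 stood at 4.76, 5.63 and 4.20 RPKM in the carotid body pools and had 2 reads in the adrenal medulla, both in pool 3. Its carotid body to adrenal medulla ratio, from 224 reads against 2, was 114, with an exact 95% counting interval of 31.2 to 948. Dlx5 exceeded Dlx6 by 2.86, 2.25 and 3.19 times per unit of mRNA length, so in both pairs one partner stood above the other in each carotid body pool.

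Dlx3 and Dlx4, the pair of the arch tip, were at or near the limit of detection in both tissues. Dlx3, which is best known from skin, teeth and bone, had 1 read in each carotid body library and 2, 2 and 0 reads in the adrenal medulla libraries. Dlx4 had 2, 3 and 0 reads in the carotid body pools and none in the adrenal medulla. There the exact 95% upper limit for 0 reads was 0.0459 RPKM over the 3 libraries. At this depth neither gene could be said to differ between the tissues. Summed over the 6 Dlx genes, the carotid body pools held 37.3, 49.0 and 42.3 RPKM and the adrenal medulla pools 2.10, 1.57 and 0.996 RPKM. Dlx1 made up 42.6% of the carotid body sum, Dlx5 30.9%, Dlx2 15.0% and Dlx6 11.4%, while Dlx3 and Dlx4 contributed 0.0623% and 0.156%. Detection followed the genomic pairs, with both genes of a pair present or both near 0.

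Barx1, a factor of the mesenchyme of the jaw, the molar teeth and the stomach, stood at 13.4, 14.2 and 20.1 RPKM in the carotid body pools and had 0 reads in each adrenal medulla library. From 951 carotid body reads and a floor of 3 reads over the adrenal medulla libraries, it was at least 323-fold higher in the carotid body. Barx2, its paralogue, had 12 carotid body reads and 1 adrenal medulla read and did not reach the filter.

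Hmx2 and Hmx3, which are needed for the vestibular part of the inner ear and act in the hypothalamus, lie next to each other on chromosome 7 in the same orientation. Hmx2 stood at 6.52, 10.5 and 22.3 RPKM in carotid body pools 1, 2 and 3 and had 1 read in the adrenal medulla. Its ratio, from 970 reads against 1, was 988 with an exact 95% counting interval of 177 to 39070. Hmx3 stood at 7.28, 11.5 and 16.8 RPKM in the carotid body pools and had 0 reads in each adrenal medulla library. With the same floor of 3 reads its ratio was 242. The exact 95% upper limit for 0 reads, 0.0609 RPKM, again lay above the floor, 0.0495 RPKM. Both genes were highest in pool 3 and lowest in pool 1, and the ratio of Hmx2 to Hmx3 per unit of mRNA length was 0.896, 0.912 and 1.33. Hmx1, the family member known from the eye, the ear and cranial ganglia, had 27 carotid body reads and 0 adrenal medulla reads.

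Msx1, a factor of tooth and palate mesenchyme that responds to bone morphogenetic proteins, stood at 5.28, 6.99 and 6.82 RPKM in the carotid body pools and at 0.193, 0.363 and 0.157 RPKM in the adrenal medulla pools. Its mean was 26.8-fold higher in the carotid body, a log2 difference of 2.57 ± 0.18 (SE). Msx2, its paralogue with overlapping roles in skull and limb, is not one of the 10 genes and was the more abundant of the 2, at 12.8, 18.4 and 25.7 RPKM in the carotid body and 2.20, 2.62 and 2.47 RPKM in the adrenal medulla. Msx2 was called higher in the carotid body (log2 2.49 ± 0.27, limma adjusted p = 2.93e-04), and it remained at over 2 RPKM in each adrenal medulla library. Msx2 exceeded Msx1 by 2.41, 2.64 and 3.76 times per unit of mRNA length in the carotid body. Msx3, which is known from the dorsal neural tube, had 0 reads in all 6 libraries.

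The carotid body pools differed in these genes by more than counting error for some and not for others. Among the 8 detected genes Hmx2 varied most, at 49.8%, 80.3% and 170% of its own mean in pools 1, 2 and 3, and Hmx3 followed at 61.3%, 97.2% and 142%. Barx1 was also highest in pool 3, at 126% of its mean, with an exact 95% counting interval of 18.3 to 22.1 RPKM that did not reach the intervals of pools 1 and 2, 11.9 to 15.1 and 12.5 to 16.0 RPKM. Dlx1 and Dlx2 instead were highest in pool 2, at 122% and 130% of their means, and lowest in pool 1. For Dlx5, Dlx6 and Msx1 the intervals of all 3 pools overlapped. The counting intervals cover sampling of reads only, since amplified reads without molecular identifiers are not independent molecules.

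**Figure D2:**
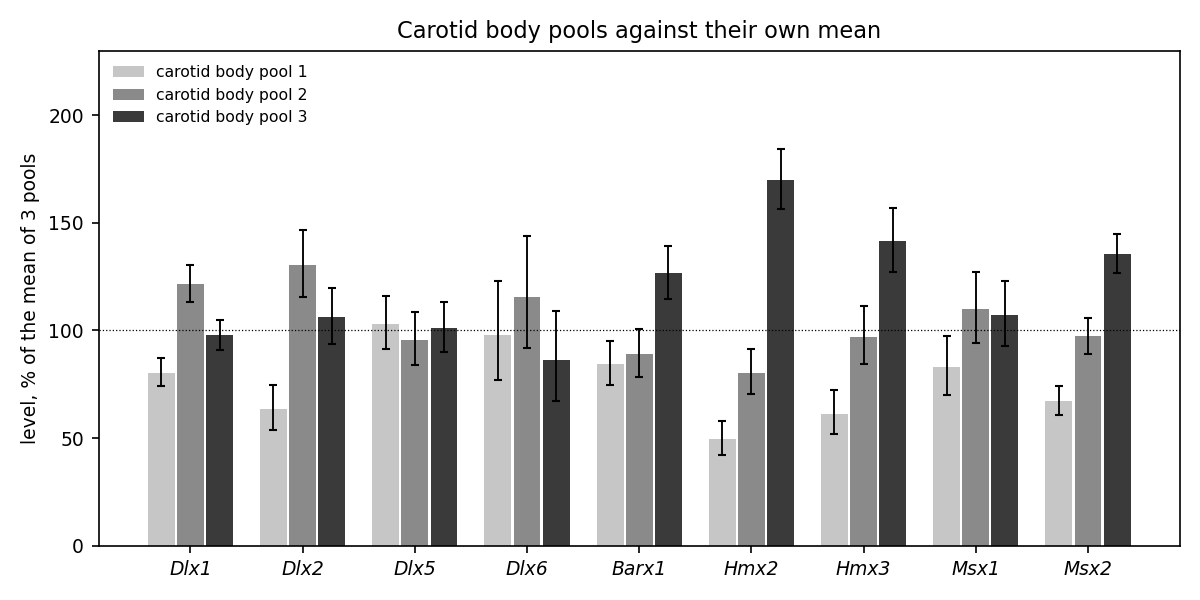
Bars give the level of each detected homeobox gene, and of Msx2, in carotid body pools 1, 2 and 3 as a percentage of the mean of the 3 pools, and error bars are exact 95% Poisson intervals of the read counts. Hmx2, Hmx3, Barx1 and Msx2 are highest in pool 3, Dlx1 and Dlx2 in pool 2, and Dlx5 is level.

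Markers of other cell types moved between the same libraries. Of all genes tested by limma, 14.2% were called with the carotid body higher and 7.73% with the adrenal medulla higher. All 12 fibroblast markers on the list were called higher in the carotid body, summing to 2735, 3431 and 3140 RPKM in pools 1, 2 and 3 against 125 to 216 RPKM in the adrenal medulla. Of glia markers 9 of 9 tested were called higher in the carotid body, at sums of 515, 478 and 328 RPKM against 49.8 to 68.8 RPKM. Smooth muscle and pericyte markers were called higher for 9 of 10, at 2550 to 3076 RPKM against 115 to 118 RPKM, and endothelial markers for 7 of 10. The fibroblast sum was highest in pool 2 and lowest in pool 1, as were Dlx1 and Dlx2. Of the 12 markers only Col3a1 and Lum followed this order, and Dcn, the most abundant, was lowest in pool 3. The sum of 10 catecholamine cell markers, 2364, 2552 and 3272 RPKM, was highest in pool 3 and lowest in pool 1, as were Hmx2 and Hmx3. Of these 10 markers only Ddc, Chgb and Phox2a followed that order. With 3 pools such shared orders are descriptions, and the part of these cell types in the homeobox values was not tested. Markers of tissues in which the 10 genes are best known were low in the carotid body, with 10 cartilage and bone markers summing to 4.84 to 6.55 RPKM, most of it Comp, a cartilage and tendon matrix protein, and 10 epithelial markers to 6.29 to 7.01 RPKM. The sensory neuron markers Scn10a, Pou4f1 and Trpv1 had 0 reads in the carotid body, and Slc17a6 and P2rx3 averaged 0.105 and 0.224 RPKM.

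Antisense entries overlap some of the genes, and the labels do not say whether libraries or counting kept the strand, so reads of a gene and of its antisense partner cannot be told apart. Dlx1as, which runs across Dlx1, stood at 4.20, 3.99 and 4.21 RPKM in the carotid body pools and at 0.240, 0.351 and 0.327 RPKM in the adrenal medulla pools. Unlike Dlx1, it was level among the carotid body pools, with a coefficient of variation of 2.90% against 20.6% for Dlx1. Dlx6as1, the noncoding RNA of the Dlx5 and Dlx6 locus, stood at 3.08, 4.85 and 2.65 RPKM in the carotid body pools and at 0.105, 0.148 and 0.0859 RPKM in the adrenal medulla pools. Dlx6as1 was highest in pool 2, as was Dlx6, although the Dlx6 counting intervals of the carotid body pools overlapped. Msx1as, at 4.98, 6.79 and 5.31 RPKM against 0.204, 0.192 and 0.250 RPKM, lay close to Msx1, with ratios of Msx1 to Msx1as of 1.06, 1.03 and 1.28. A second entry of the Dlx6 locus, Dlx6as2, had 8 carotid body reads and 0 adrenal medulla reads.

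**Figure D3:**
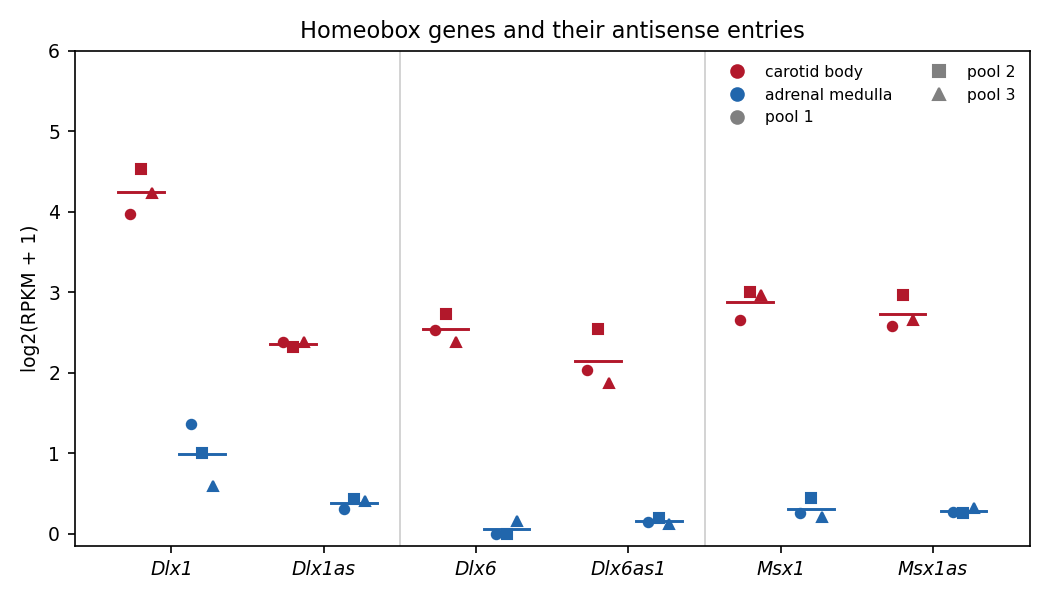
Levels of Dlx1, Dlx6 and Msx1 are plotted beside those of their antisense entries as log2(RPKM + 1), with red points for carotid body pools, blue points for adrenal medulla pools and bars at the group means. Each antisense entry lies higher in the carotid body pools than in the adrenal medulla pools, as its partner does.

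Genes that flank the homeobox loci were examined to see whether the tissue difference extended beyond them. The nearest protein-coding neighbours are Metap1d and Itga6 for Dlx1 and Dlx2, Shfm1 and Acn9 for Dlx5 and Dlx6, Itga3 and Tac4 for Dlx3 and Dlx4, Acadsb and Bub3 for Hmx2 and Hmx3, Ptpdc1 and Phf2 for Barx1, and Cytl1 and Stx18 for Msx1. Of these 12 genes 10 were tested, and 2 were called by limma, both higher in the carotid body, a share near the 14.2% of all genes tested that were called in that direction. Cytl1, a secreted cytokine-like protein of cartilage, stood at 148, 89.2 and 106 RPKM in the carotid body pools and 1.45, 1.37 and 0.437 RPKM in the adrenal medulla pools (log2 5.80 ± 0.29, limma adjusted p = 1.11e-05). Bub3, a mitotic checkpoint protein, stood at 206, 198 and 231 RPKM against 101, 84.3 and 92.2 RPKM (log2 1.19 ± 0.21, limma adjusted p = 0.00382). The neighbours of the Dlx1 and Dlx2 pair were not called, with Metap1d at 19.1 ± 5.50 against 19.6 ± 1.42 RPKM and Itga6 at 15.5 ± 3.09 against 9.52 ± 3.86 RPKM (SD, n = 3). Without adrenal medulla pool 1 Itga6 was called (limma adjusted p = 0.0376). Shfm1, beside the Dlx5 and Dlx6 pair, was at 462 ± 132 against 359 ± 29.2 RPKM and was not called either. Acadsb, beside Hmx2 and Hmx3, was at 22.9 ± 4.55 against 48.5 ± 23.0 RPKM and was not called (limma adjusted p = 0.0703). Without both pools that stood apart Acadsb was called higher in the adrenal medulla (limma adjusted p = 0.0375).

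Promoter sequences are shown for 5 of the 10 genes, Dlx2, Msx1, Hmx2, Hmx3 and Barx1, to show how the upstream bases of genes high in the carotid body differ among themselves. They come from RefSeq, build GRCm38.p6, and hold the bases before the RefSeq start of the gene, 5′ to 3′ on the strand of the gene, ending where the first GENCODE exon begins. Windows were found for 6 of the 10 genes, with 2 for Hmx2, which has 2 RefSeq starts. The window of Dlx1 and that of the downstream Hmx2 start lie wholly or mostly within annotated exons and are not printed. Capitals mark matches on either strand, overlapping ones included. The motifs searched were the E-box CACGTG, the CCAAT box spelled by its name, the GC box with the letters GGGCGG, the TATA box with the letters TATAAA, and the core site of homeodomain proteins with the letters TAATTA.
Dlx2, chr2:71546755-71547004, minus strand: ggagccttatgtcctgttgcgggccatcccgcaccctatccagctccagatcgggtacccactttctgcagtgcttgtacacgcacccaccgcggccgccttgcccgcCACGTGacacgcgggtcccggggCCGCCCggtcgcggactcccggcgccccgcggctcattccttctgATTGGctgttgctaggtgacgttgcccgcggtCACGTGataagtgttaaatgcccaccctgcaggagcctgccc
Msx1, chr5:37824586-37824835, minus strand: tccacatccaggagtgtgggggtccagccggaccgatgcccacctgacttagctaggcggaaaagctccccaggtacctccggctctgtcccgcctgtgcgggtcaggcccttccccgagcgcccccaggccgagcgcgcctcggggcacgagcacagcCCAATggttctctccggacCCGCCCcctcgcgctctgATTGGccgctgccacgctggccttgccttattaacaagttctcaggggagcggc
Hmx2, upstream start, chr7:131548507-131548756, plus strand: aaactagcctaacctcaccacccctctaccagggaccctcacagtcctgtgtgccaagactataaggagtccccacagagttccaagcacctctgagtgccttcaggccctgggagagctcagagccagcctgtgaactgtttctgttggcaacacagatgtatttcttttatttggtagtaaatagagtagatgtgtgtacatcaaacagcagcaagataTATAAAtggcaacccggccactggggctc
Hmx3, chr7:131542713-131542866, plus strand: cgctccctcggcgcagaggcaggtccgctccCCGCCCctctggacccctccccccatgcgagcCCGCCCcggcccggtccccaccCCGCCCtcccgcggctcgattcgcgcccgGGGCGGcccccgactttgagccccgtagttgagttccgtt
Barx1, chr13:48662786-48662997, plus strand: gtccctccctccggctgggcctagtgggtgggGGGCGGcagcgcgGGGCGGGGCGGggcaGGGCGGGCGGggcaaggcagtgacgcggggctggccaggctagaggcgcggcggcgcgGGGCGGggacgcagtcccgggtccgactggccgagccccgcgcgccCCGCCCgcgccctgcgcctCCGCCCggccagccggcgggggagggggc

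The windows differed in base composition. The 250 bases before the RefSeq start held 85.6% G and C in Barx1, 76.8% in Hmx3, 68.0% in Msx1 and Dlx1 and 66.4% in Dlx2, against a median of 52.4% over 32851 such windows. At Hmx2 the share was 49.6% for the upstream start and 70.0% for the downstream start. CpG dinucleotides numbered 40 in Barx1, 31 in Hmx3, 24 in Dlx2, 22 in Dlx1 and 20 in Msx1, and 1 and 21 at the upstream and downstream Hmx2 starts, against a median of 6. GGGCGG matched 8 times in Barx1, 7 times in Hmx3, of which 4 are in the stretch printed, 3 times at the downstream Hmx2 start and once each in Msx1 and Dlx2, and 32.7% of all windows have a match. CACGTG matched 2 times in Dlx2 and in none of the other 6 windows, with 6.02% of all windows holding it. CCAAT matched in Msx1, in Dlx2 and at the downstream Hmx2 start, as in 33.8% of all windows. TATAAA matched once, at the upstream Hmx2 start, and 12.4% of all windows hold it. The homeodomain core site was in none of the 7 windows, and it occurs in 4.84% of all windows. The upstream Hmx2 window thus stood apart from the other 6, which were rich in G and C and held no TATA box. The deposited values are per gene and do not tell which Hmx2 start was used.

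The upstream signals of the arch programme were measured from a list of 30 endothelin, BMP and FGF pathway genes, of which 25 were tested, 7 were called with the carotid body higher and 3 with the adrenal medulla higher, which left 15 uncalled. Over all genes tested the shares called were 14.2% and 7.73%. This list was chosen with earlier results of these data known, so the counts are descriptions. Edn1, the ligand that switches on Dlx5 and Dlx6 in the arches, stood at 10.9, 10.7 and 11.6 RPKM in the carotid body pools and 0.318, 0.0598 and 0.208 RPKM in the adrenal medulla pools (log2 3.34 ± 0.18, limma adjusted p = 1.35e-05). Its receptor Ednra stood at 23.0, 28.9 and 22.1 RPKM against 7.23, 6.40 and 2.87 RPKM (log2 2.04 ± 0.31, adjusted p = 0.00174). Ece1, the enzyme that activates endothelin, was not called (log2 0.53, adjusted p = 0.180), nor were the G protein genes Gnaq and Gna11 that carry the signal of the receptor. Among BMP genes the ligand Bmp2 (log2 2.62), the antagonist Grem1 (2.08) and the target genes Id1 (2.67), Id3 (2.62) and Id4 (2.28) were called higher in the carotid body. Edn1, Grem1 and Id4 were under 1 RPKM in each adrenal medulla library and reached the filter through the carotid body alone. A difference was thus built into the filter for them. Bmp4, the other ligand tied to Msx genes, was at 8.43, 12.9 and 20.4 RPKM against 4.18, 9.06 and 8.02 RPKM and was not called (adjusted p = 0.143), although it was with the replicate block (adjusted p = 0.0271). Fgfr2, a fibroblast growth factor receptor, differed in the other direction (log2 -3.05), as did Id2 (-1.10) and Smad9 (-0.66). The call of Smad9 ended when pool 2 or 3 of the carotid body, pool 1 or 2 of the adrenal medulla or both pools that stood apart were left out, and with no filter on low values, and that of Id2 when pool 1 or 3 of the carotid body was, with adjusted p-values of up to 0.113 and 0.0592. Smooth muscle and endothelial markers, higher in the same carotid body libraries, are given above, and their part in the endothelin values was not tested. The part of adrenal cortex transcripts in the Fgfr2, Id2 and Smad9 values was not tested either.

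Other transcription factors of the arches were taken from a list of 51 genes, all of them in the table. Of the 28 tested, 14 were called with the carotid body higher and 5 with the adrenal medulla higher, which left 9 uncalled, at a median log2 difference of 0.84 against 0.02 over all genes tested. Among all genes tested, 14.2% and 7.73% were called in these directions. The list was written with earlier results of these data known, so the counts and the median are descriptions. The other 23 did not reach the filter. Prrx2, Twist2, Foxd1, Snai1 and Shox2 were under 1 RPKM in each adrenal medulla library and reached the filter through the carotid body alone. A difference was thus built into the filter for these genes. The factors of arch mesenchyme Prrx1 (log2 2.95 ± 0.27, adjusted p = 1.14e-04) and Prrx2 (2.16) and the bHLH factors Twist2 (2.26) and Twist1 (1.19) were higher in the carotid body. Prrx1 stood at 21.0, 29.3 and 20.2 RPKM in the carotid body pools and 2.79, 2.46 and 1.32 RPKM in the adrenal medulla pools, and the groups did not overlap. The forkhead genes Foxc1 (2.21), Foxd1 (1.66) and Foxc2 (1.20), the nuclear receptor genes Nr2f1 (2.65) and Nr2f2 (1.58) and Tbx2 (1.79) were called in the same direction. Eya2, a transcriptional coactivator of the eyes absent family, led the list at 10.5, 10.8 and 36.7 RPKM against 0.605, 1.48 and 1.66 RPKM (log2 2.97 ± 0.46, adjusted p = 0.00186), and its carotid body level rested to a large part on pool 3. Sox9 (0.88) and Shox2 (0.80) were called with all libraries. The call of Sox9 ended without pool 1 or 2 of the carotid body, without pool 1 of the adrenal medulla and without both pools that stood apart, and that of Shox2 ended without pool 1 or 2 of the adrenal medulla and with quantile scaling, at adjusted p-values of up to 0.0736 and 0.0688. Fibroblast markers were higher in the same libraries, as given above.

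The 5 factors higher in the adrenal medulla were Tfap2b (log2 -2.91), Hand1 (-2.85), Tbx3 (-2.66), Meis2 (-1.57) and Runx2 (-1.18). All 10 adrenal cortex markers were called higher in the same libraries, and their part in these values was not tested. Hand1, a bHLH factor of heart, arches and sympathoadrenal cells, stood at 0.872, 0.715 and 0.981 RPKM in the carotid body pools and 10.2, 17.4 and 10.6 RPKM in the adrenal medulla pools (± 0.25 SE, adjusted p = 8.86e-05). Hand1 and Tfap2b were under 1 RPKM in each carotid body library and reached the filter through the adrenal medulla alone, which built in a difference. Without carotid body pool 3 the calls of Runx2 and Meis2 ended, at adjusted p = 0.0561 and 0.0525. Hand2, which acts below Dlx5 and Dlx6 in the lower jaw and also in sympathoadrenal cells, was high in both tissues, at 83.3, 84.1 and 116 RPKM against 40.3, 80.6 and 59.9 RPKM, and was not called (log2 0.68, adjusted p = 0.152). Mef2c, which carries the endothelin signal to Dlx5 and Dlx6 in the embryo, was not called either (1.22, adjusted p = 0.0571). It was called with the replicate block (adjusted p = 0.00468) and without adrenal medulla pool 1 (adjusted p = 0.0153). Several factors of the jaw that depend on Dlx genes in the embryo were near 0, with Gsc at 0 reads in all 6 libraries, Pitx1 at 0 in the carotid body and Gbx2 at 0.0101 RPKM there.

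**Figure D4:**
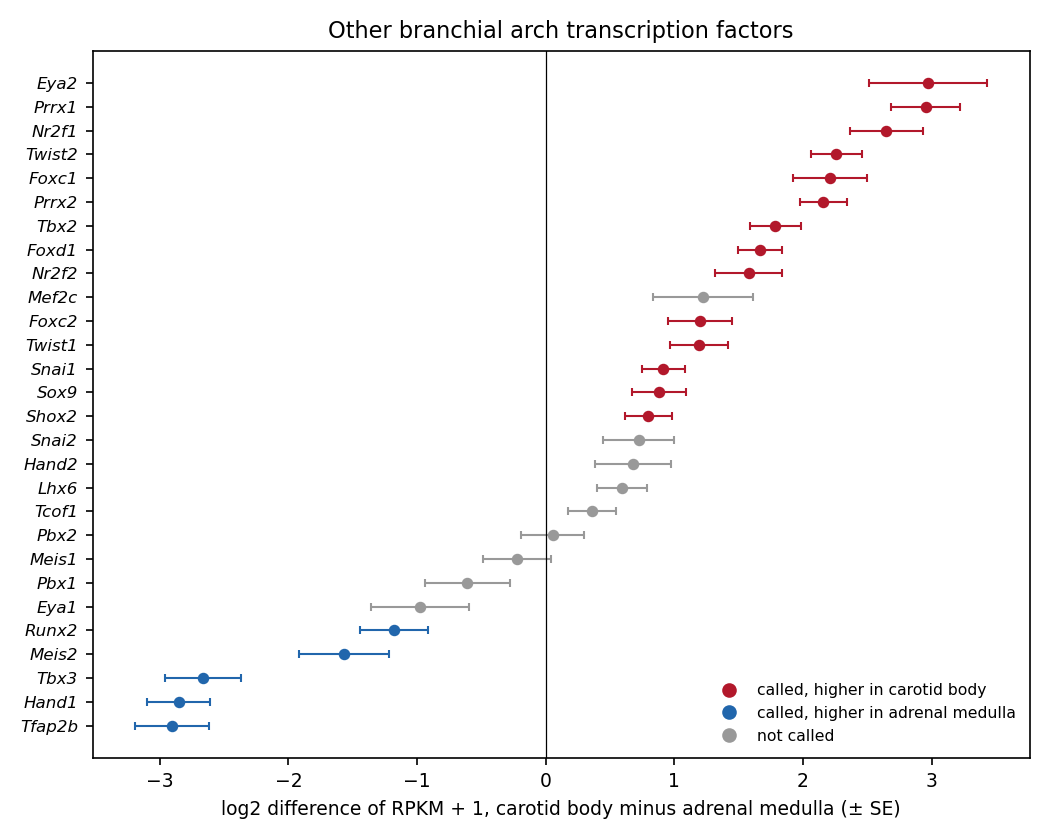
The log2 difference on the log2(RPKM + 1) scale, with its SE from limma, is plotted for the 28 branchial arch transcription factors that reached the filter and are not among the 10 genes. The 14 called higher in the carotid body are red, the 5 called higher in the adrenal medulla are blue, and the 9 not called are grey.

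The genes most like Dlx1, the most abundant of the 10 in the carotid body, were ranked by Pearson correlation of log2(RPKM + 1) over the 6 libraries, which form 2 tissue groups, so that a high value mostly reflects the tissue difference. The 5 highest were Glt8d2, Mpzl1, Sertad2, Rnase4 and Rhoj, at 0.999, 0.999, 0.999, 0.999 and 0.998. Glt8d2, a glycosyltransferase-like protein, stood at 3.71, 4.90 and 4.39 RPKM in the carotid body pools and 0.553, 0.423 and 0.198 RPKM in the adrenal medulla pools. All 5 genes shared with Dlx1 the order of the pools within both tissues, which their choice by correlation over these libraries favours. The correlations are given as a description with no test.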

How the data were processed

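Expression was measured by RNA sequencing of amplified RNA in 6 pools, 3 per tissue. Reads were aligned with Bowtie 0.9.8 to mm9, per the submitters' processing notes, and the counting step is not given in the sources used here. The authors deposited RPKM for the 23511 of 26728 entries with an mRNA length. The other 3217 entries, raw counts in the deposited table, were not tested. RPKM times length gave whole reads, within 0.01, for 106276 of 106276 values above 0, and all reads summed to the RPKM denominator in 6 of 6 libraries.

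The test was limma's moderated test (version 3.58.1, R 4.3.3) with an empirical Bayes variance trend. It was run on log2 of RPKM plus a pseudocount of 1, for the 13357 genes with at least 1 RPKM in at least 3 libraries, two-sided, with Benjamini-Hochberg adjustment over all of them and a threshold of 0.05. Genes under 1 RPKM in every library of 1 tissue could pass the filter through the other tissue alone, which builds in a difference. The p-values measure the spread between these pools, which may be partly technical. The fit was tested on simulated data, where unchanged genes made up more of the calls than the threshold of 0.05 allows. Alternatives were a pseudocount of 0.1, no filter, median-ratio and quantile scaling, a replicate block, limma voom on recovered reads (at least 10 in at least 3 libraries), and leaving libraries out. Both tissues carry group numbers 1 to 3 in the labels. Deviations of same-numbered pools from their tissue means correlated across genes at 0.259, 0.128 and 0.473. Carotid body pool 2 correlated more with adrenal medulla pool 1, at 0.291. Deviations from a mean of 3 pools are not independent, so these values cannot settle whether the pools are paired. Blocked values are given only where they alter a call.

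The 10 genes and all lists were chosen with earlier results of these data known. Named genes were the 10 members, Edn1, Ednra, Hand1, Hand2 and the paralogues Msx2, Msx3, Barx2 and Hmx1 whatever their values, up to 12 called genes per list by size, the nearest neighbours and the 5 genes most like Dlx1. Other genes are named after their values were seen. Names of neighbours come from GENCODE M21 (GRCm38), used for order only, and 10 of 10 genes matched RefSeq by accession. Python 3.11.15, pandas 2.3.3 and matplotlib 3.10.9 were used for tables and plots.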

Additional observations from a re-analysis of the deposited data

How the results depend on the processing

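Over the alternatives, the 10 genes gave 124 log2 differences, of which 104 lay within 1 SD of the value reported, 20 moved further and 0 of those that reached the filter changed sign. A pseudocount of 0.1 and voom on reads made the differences larger, with Barx1 at 7.30 and 9.30 and Hmx2 at 6.68 and 8.62. Such values of genes with 0 or 1 adrenal medulla reads depend on the pseudocount or prior count. With the replicate block, 2257 genes were called toward the carotid body and 1356 toward the adrenal medulla, against 1896 and 1033 without it, and for the arch factors the counts were 17 and 5, with Mef2c, Lhx6 and Snai2 added at adjusted p = 0.00468, 0.0411 and 0.0462. Among the other genes of the pathway, Dlx and Hox lists and the neighbours, the block changed the call of Bmp4 only. When pool 2 of the carotid body and pool 3 of the adrenal medulla were both left out, 2067 genes were called higher in the adrenal medulla; the cause was not tested. The arch factors higher in the adrenal medulla numbered 3 to 7 when 1 library was left out, with 3 when it was pool 3 of the carotid body and 7 when it was pool 3 of the adrenal medulla. With 1 read worth 0.0304 to 0.0377 RPKM at 2 kb, depth limits what can be said of Dlx3, Dlx4, Barx2, Hmx1 and Msx3.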

Other observations

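Hox genes of paralogue groups 1 to 4, which mark the hindbrain and the arches behind the first, went both ways. Of 12 genes 8 were tested, and 3, Hoxa2 (log2 2.20), Hoxa3 (1.09) and Hoxa4 (1.08), were called higher in the carotid body by limma, against 14.2% of all genes tested. Another 3, Hoxc4 (-2.79), Hoxb4 (-1.28) and Hoxd4 (-0.81), were called higher in the adrenal medulla, against 7.73%. Hoxa2, Hoxa3, Hoxa4, Hoxc4 and Hoxd4 were under 1 RPKM in every library of the lower tissue, so the filter built in a difference. Hoxa2 stood at 5.01, 5.69 and 4.60 RPKM in the carotid body pools and 0.461, 0.474 and 0.0685 RPKM in the adrenal medulla pools. The call of Hoxa3 ended without adrenal medulla pool 2, at adjusted p = 0.0627, and that of Hoxd4 without carotid body pool 1 or 3, at up to 0.0610.

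Genes known to depend on Dlx factors or to bind them in embryo or brain moved in no common direction. Of 8 tested, Rgs5 (log2 5.80) and the Dlx-binding protein gene Maged1 (0.83) were called higher in the carotid body, and Dlk1 (-4.58) and Runx2 (-1.18) higher in the adrenal medulla, where 14.2% and 7.73% of all genes tested were called in these directions. Rgs5, at 1669 against 29.5 RPKM, is also one of the smooth muscle and pericyte markers, of which 9 of 10 were higher in the carotid body, and their part in its value was not tested. The part of adrenal cortex transcripts in the Dlk1 and Runx2 values was not tested. The call of Runx2 ended without carotid body pool 3, at adjusted p = 0.0561. The call of Maged1 ended without any 1 of 5 libraries, with adrenal medulla pool 3 the exception, at adjusted p-values of up to 0.0918. The GABA synthesis genes Gad1 and Gad2, Dlx targets of the forebrain, averaged 0.857 and 1.70 RPKM in the carotid body and did not reach the filter. The bone factor Sp7 was at 0.604, 0.726 and 0.562 RPKM in the carotid body and had reads in adrenal medulla pool 2 only, at 0.0307 RPKM.

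The order of the carotid body pools in Hmx2 and Hmx3, highest in pool 3 and lowest in pool 1, was also that of Eya2, Bmp4 and Id1, genes picked out after their values were seen. Id1 stood at 261, 288 and 546 RPKM in pools 1, 2 and 3.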
